A study of Mus musculus with 19 samples.

Results

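Cyp2e1, Acsm3, B3galt2 and Klb were examined as the 4 eligible genes with the largest rises after angiotensin II (Ang II) in the suprarenal abdominal aorta (SRA) of IKKβ-/- mice, out of 20408 genes in the table. They were chosen on measured values, in that the rule read the Ang II and saline columns of the IKKβ-/- mice, so their levels in those mice are given as a description without a test. All 4 members passed the filter on low values, as did 14845 genes in all, and each was compared mouse by mouse with Adipoq, the gene of the adipocyte hormone adiponectin. Eligible genes were those that passed the test in IKKβ-/- mice, had every Ang II-treated mouse above every saline-infused mouse and reached a mean of at least 50 normalized counts in either group. Of 197 eligible genes, Klb was the last member inside, at a log2 change of 5.40, and the next genes outside were Cidec at 4.89 and Adipoq at 4.70. Among all genes tested, eligible or not, the members ranked 1, 2, 4 and 5 by this change and Adipoq ranked 8. Pck1, at 5.73, lay between Acsm3 and B3galt2 and was not eligible, since its Ang II and saline groups overlapped.

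The RNA-Seq data came from 19 male mice on an ApoE-/- C57BL/6 background that were fed regular chow, used at 8 weeks of age and infused for 24 h by osmotic pump. All groups, controls included, carried SMA-CreERT2, a tamoxifen-inducible Cre recombinase under the Acta2 promoter that is active in vascular smooth muscle cells, and all received tamoxifen. IKKβ+/+ mice, littermates without the floxed Ikkβ alleles, served as controls (5 Ang II-treated and 5 saline-infused), and IKKβ-/- mice were Ikkβ Flox/Flox (5 Ang II-treated and 4 saline-infused), in which the deletion is aimed at smooth muscle cells and other cells of the SRA keep the gene. The labels give the Ang II dose as 500 to 1000 ng/min/kg, and the methods of the study name only the upper value for these mice. The values are normalized counts, the reads of a gene divided by the size factor of its mouse, with between 11382573 and 19906694 reads per mouse on genes. Ikbkb, the gene deleted, ranged from 430.2 to 672 normalized counts in the 9 IKKβ-/- mice and from 594 to 791 in the 10 IKKβ+/+ mice, and 8 of the 9 IKKβ-/- mice lay below all IKKβ+/+ mice. Each group held its own run of mouse numbers and no batch is stated, and differences between batches cannot be told apart from those between groups.

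The members belong to different branches of metabolism. Cyp2e1 encodes a cytochrome P450 of the endoplasmic reticulum that oxidizes ethanol, acetone and small lipophilic compounds, and is best known from hepatocytes, although fat tissue also expresses it. Acsm3 encodes a mitochondrial acyl-CoA synthetase that activates medium-chain fatty acids. B3galt2 encodes a Golgi galactosyltransferase that extends the sugar chains of glycoproteins and glycolipids. Klb encodes β-Klotho, the co-receptor that lets FGF receptors bind the hormone FGF21, and is found mainly in liver, fat tissue and pancreas. Adipoq and Plin1, which encodes the perilipin on the surface of lipid droplets, mark adipocytes, and the SRA is surrounded by a layer of perivascular fat.

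In GRCm38 the member genes lie apart. Cyp2e1 (ENSMUSG00000025479.9) spans chr7:140763739-140774987, Acsm3 (ENSMUSG00000030935.15) chr7:119760923-119787513, B3galt2 (ENSMUSG00000033849.3) chr1:143640664-143654614 and Klb (ENSMUSG00000029195.10) chr5:65348314-65384007, all on the plus strand. Adipoq (ENSMUSG00000022878.5) spans chr16:23146536-23158028, also on the plus strand. Acsm3 overlaps Eri2 on the minus strand (119768679 to 119794058), and B3galt2 lies wholly within the span of Cdc73 on the minus strand (143598800 to 143702893). The libraries keep the strand, but the strand setting of the counting is not given in the sources used here, so reads of these overlapping genes may not be fully separated. Cdc73 changed by -0.16 and Eri2 by 0.22 on the log2 scale after Ang II in IKKβ-/- mice, with adjusted p = 0.39 and 0.656 (limma), against 5.63 for B3galt2 and 6.21 for Acsm3.

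The bases before the RefSeq start of each gene (GRCm38.p6) are shown because the 4 members and Adipoq moved together across the mice, as described further on. Each is a run of 150 bases on the plus strand that ends at the base before the start, at chr7:140763669-140763818 for Cyp2e1, chr7:119760773-119760922 for Acsm3, chr1:143640547-143640696 for B3galt2, chr5:65348261-65348410 for Klb and chr16:23146386-23146535 for Adipoq. Capitals mark matches, on either strand, to any of 7 short motifs, and all 5 symbols matched. In the Gencode annotation Cyp2e1, B3galt2 and Klb begin farther upstream than in RefSeq, inside the bases shown.
Cyp2e1: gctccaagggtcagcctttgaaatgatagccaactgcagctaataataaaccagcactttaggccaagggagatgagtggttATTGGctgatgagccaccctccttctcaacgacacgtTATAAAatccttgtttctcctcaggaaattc
Acsm3: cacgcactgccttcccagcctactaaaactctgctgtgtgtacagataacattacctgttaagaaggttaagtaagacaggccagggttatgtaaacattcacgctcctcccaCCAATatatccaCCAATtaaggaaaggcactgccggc
B3galt2: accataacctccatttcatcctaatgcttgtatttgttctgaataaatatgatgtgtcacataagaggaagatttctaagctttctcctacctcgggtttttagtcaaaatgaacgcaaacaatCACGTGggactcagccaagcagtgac
Klb: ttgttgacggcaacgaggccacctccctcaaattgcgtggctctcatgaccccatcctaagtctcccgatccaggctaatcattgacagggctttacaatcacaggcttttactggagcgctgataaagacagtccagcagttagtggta
Adipoq: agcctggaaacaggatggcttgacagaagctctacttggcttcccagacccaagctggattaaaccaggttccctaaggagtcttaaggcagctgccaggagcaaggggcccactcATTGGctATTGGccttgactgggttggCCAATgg
The motifs searched over 300 bases, from 250 before to 50 after the start, were TATAAA (bound by TBP), CCAAT (bound by NF-Y), GGGCGG (GC box), AGGTCA (nuclear receptor half-site), TTGCNNAA (C/EBP core), GTTAAT (HNF1 half-site) and CACGTG (E-box). Among 32851 mouse promoters of this length, the motifs were found in 13.6%, 37.4%, 35.7%, 16.3%, 10.8%, 7.10% and 7.15%, in that order. TATAAA was found in Cyp2e1 alone of the 5 genes, at positions -31 to -26 from the start. CCAAT was found in 3 of 5, with 2 matches in Cyp2e1, 2 in Acsm3 and 3 in Adipoq. TTGCNNAA was found once, in Acsm3 at -181 to -174, ahead of the bases shown, and CACGTG once, in B3galt2 at -26 to -21. The other 3 motifs were found in none of the 5 promoters, no match overlapped another, and the Klb promoter held none of the 7. None of the motifs was shared by all members, and a match is a description of letters only.

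Cyp2e1 was the most abundant member per length in every group. In the 5 saline-infused IKKβ+/+ mice it had 44.5, 148, 347.5, 734 and 1612 normalized counts, and in the 5 Ang II-treated IKKβ+/+ mice 344, 814, 1689.6, 2911 and 3076. In IKKβ-/- mice it had 27.0, 34.1, 50.2 and 88.5 with saline, and 442, 3527, 4644, 8443 and 9978 with Ang II. The saline-infused IKKβ-/- mice thus lay at the low end, 2 of them below all saline-infused IKKβ+/+ mice, and all 5 Ang II-treated IKKβ-/- mice lay above them without overlap. Over all genes tested, 2.41% showed such a separation between Ang II and saline in IKKβ-/- mice; the rule required it of the members.

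Acsm3 had far fewer reads and the same order of groups. Saline-infused IKKβ+/+ mice had 5.56, 8.81, 35.1, 66.2 and 122 normalized counts and Ang II-treated IKKβ+/+ mice 36.3, 67.5, 81.1, 137 and 172. Saline-infused IKKβ-/- mice had 0, 0, 2.18 and 32.7, and Ang II-treated IKKβ-/- mice 47.6, 137, 249, 586 and 784. The lone saline-infused IKKβ-/- mouse with more than 3 reads, mouse X2403, lay close to the lowest Ang II-treated mouse. A count of 0 reads allows up to 3 reads, which covers counting error only, so absence in the other mice cannot be read from it.

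B3galt2 differed from the first pair in the IKKβ+/+ mice, where the treated range lay within the saline range. Its values there were 7.94, 48.5, 101, 123 and 415 with saline and 19.1, 54.6, 141, 168 and 178 with Ang II, and the highest value of both groups was that of saline-infused mouse X2370. IKKβ-/- mice had 0, 5.79, 10.2 and 11.6 with saline and 34.9, 134, 339, 838 and 1153 with Ang II, again without overlap.

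Klb was the least abundant member per length. Saline-infused IKKβ+/+ mice had 1.59, 3.52, 11.4, 12.0 and 47.3 normalized counts and Ang II-treated IKKβ+/+ mice 5.73, 14.995, 24.5, 29.6 and 32.8. No read was found in 3 of the 4 saline-infused IKKβ-/- mice and 3 reads (2.18 normalized counts) in the other, whereas Ang II-treated IKKβ-/- mice had 7.94, 27.7, 55.3, 151 and 255. With saline-infused IKKβ-/- mice at the floor of 3 reads per mouse (mean 3.41 normalized counts), mean Klb was at least 29.1-fold higher in Ang II-treated IKKβ-/- mice, at least 6.32-fold higher in Ang II-treated IKKβ+/+ mice and at least 4.44-fold higher in saline-infused IKKβ+/+ mice.

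**Figure D1:**
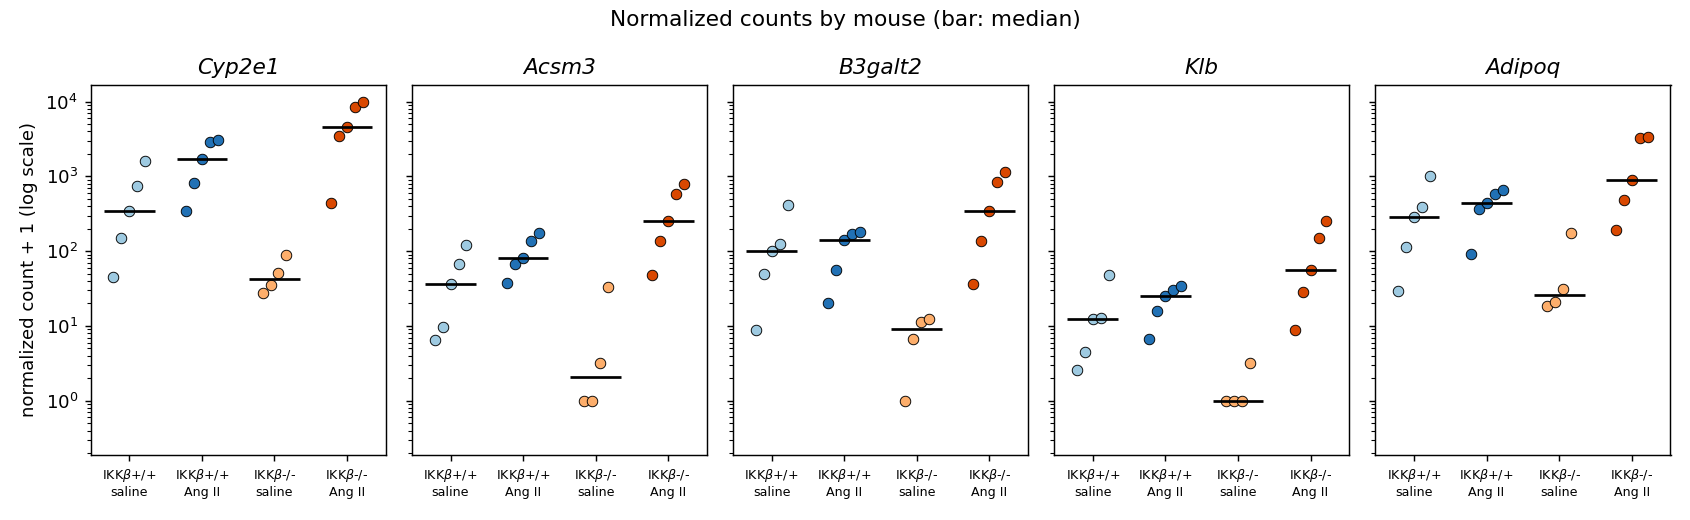
Normalized count plus 1 (log scale) of the 4 members and Adipoq in each of 19 mice by group, with a bar at the group median. The median of saline-infused IKKβ-/- mice is the lowest and that of Ang II-treated IKKβ-/- mice the highest in all 5 panels (Cyp2e1 27.0 to 88.5 against 442 to 9978), while the IKKβ+/+ groups overlap.

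Ordered by group median, all 4 members had Ang II-treated IKKβ-/- mice highest, then Ang II-treated IKKβ+/+, saline-infused IKKβ+/+ and saline-infused IKKβ-/- mice. Neighbouring groups in this order overlapped in their values for every member, and the rule itself required the separation by treatment in IKKβ-/- mice. For B3galt2 the order of the middle groups depended on the summary, with means of 139 ± 160.5 (SD, n = 5) with saline and 112 ± 71.1 (SD, n = 5) with Ang II in IKKβ+/+ mice. The same mice held the extremes for each member: X2370 was the highest and X2372 the lowest saline-infused IKKβ+/+ mouse, X2358 the lowest Ang II-treated IKKβ+/+ mouse and X2383 the lowest Ang II-treated IKKβ-/- mouse, with X2384 and X2385 the highest. Adipoq followed the same pattern, with 28.6 in X2372, 1012 in X2370, 89.8 in X2358, 194 in X2383, 3350.4 in X2384 and 3298 in X2385. Per kilobase of merged exons, mean Cyp2e1 in Ang II-treated IKKβ-/- mice was 2505 ± 1778 (SD, n = 5) normalized counts, against 1190.5 ± 1125 for Adipoq, 73.1 ± 63.3 for Acsm3, 53.8 ± 51.5 for B3galt2 and 21.8 ± 22.6 for Klb. On this scale per length, Cyp2e1 and Adipoq were near each other in saline-infused IKKβ+/+ mice, at 267 ± 294.5 and 265 ± 280.5 (SD, n = 5).

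Fitted with limma on log2(normalized count + 1), the log2 change with Ang II in IKKβ-/- mice was 6.29 for Cyp2e1 (95% interval 4.36 to 8.22), 6.21 for Acsm3 (4.11 to 8.31), 5.63 for B3galt2 (3.41 to 7.85) and 5.40 for Klb (3.56 to 7.23). These values chose the members, and for Acsm3, B3galt2 and Klb they also rest on the pseudocount, since saline-infused mice had few or no reads. Without X2384 and X2385, a choice made after seeing the data, they were 5.39, 5.21, 4.41 and 4.19. Adipoq, which is no member, changed by 4.70 in the same fit (SE 0.95, adjusted p = 0.0129, limma), with 5 of 5 Ang II-treated mice above all saline-infused mice. It was among the eligible genes, which had to meet both conditions, so neither is independent of the ranking. Without X2384 and X2385 it changed by 3.53 and no longer passed (adjusted p = 0.108, limma). Over its alternatives the adjusted p of Adipoq ran from 7.24e-05 to 0.392. Passing meant a fold change above 1.2 together with an adjusted p under 0.1, and 2.59% of genes did so upward and 2.69% downward in this comparison.

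With saline alone, the members were lower in IKKβ-/- than in IKKβ+/+ mice by log2 differences of -2.74 (Cyp2e1), -3.15 (Acsm3), -3.75 (B3galt2) and -2.88 (Klb), and with Ang II they were higher by 1.43, 1.45, 1.68 and 1.52. Both comparisons share mice with the rule and were not tested for the members. The change with Ang II in IKKβ-/- minus that in IKKβ+/+ mice was 4.18, 4.61, 5.43 and 4.40 on the log2 scale, again with no test. For Adipoq the corresponding values were -2.45 with saline (adjusted p = 0.163), 1.48 with Ang II (adjusted p = 0.46) and 3.92 for the difference of the Ang II changes (adjusted p = 0.298, limma), none of which passed.

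The comparison of Ang II with saline in IKKβ+/+ mice takes its change from mice that the rule did not read, and the members were tested there. The spread behind each p was estimated over all 4 groups, and a fit of the IKKβ+/+ groups alone gave adjusted p = 0.157 for Cyp2e1, 0.2 for Acsm3, 0.911 for B3galt2 and 0.416 for Klb (limma). Cyp2e1 changed by 2.11 on the log2 scale (SE 0.87, adjusted p = 0.174, limma), with 3 of 5 Ang II-treated mice above all saline-infused mice. Acsm3 changed by 1.61 (SE 0.95, adjusted p = 0.357, limma) with 2 of 5 mice above. Klb changed by 0.99 (SE 0.83, adjusted p = 0.534) and B3galt2 by 0.21 (SE 1.003, adjusted p = 0.935, limma), with no mouse above all saline-infused mice. None of the 4 members passed, 1 of 4 had an unadjusted p under 0.05, and 4.33% of all genes tested passed upward and 4.33% downward. The edgeR and DESeq2 tests on the recovered reads also called 0 of 4, against 5.07% and 7.10% of genes upward, and gave Cyp2e1 a log2 change of 1.61 in both. The intervals were wide, from 0.29 to 3.94 for Cyp2e1, -0.37 to 3.59 for Acsm3, -1.89 to 2.30 for B3galt2 and -0.73 to 2.72 for Klb. Cyp2e1 passed without saline-infused mouse X2370, whose value was the highest of its group (log2 change 2.71, adjusted p = 0.0924), and over the alternatives its adjusted p ran from 0.00251 to 0.361.

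**Figure D2:**
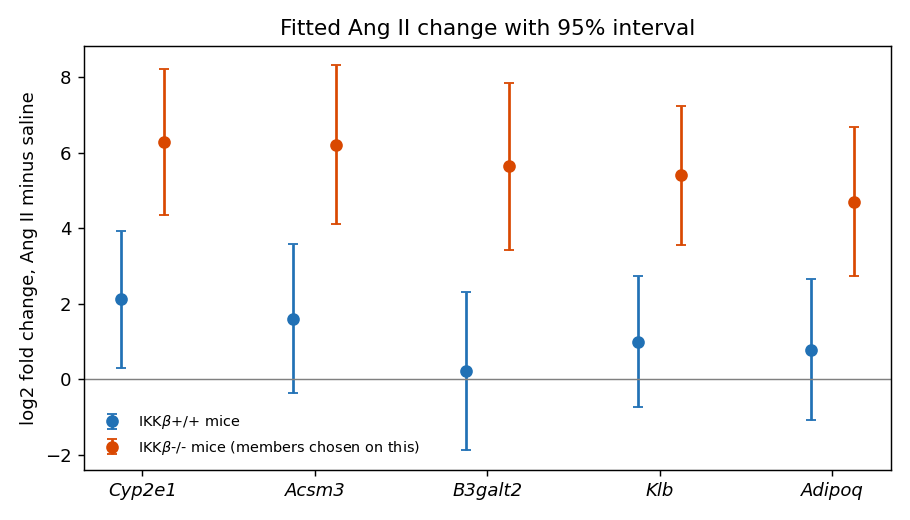
Fitted log2 change (Ang II minus saline) of the members and Adipoq in IKKβ+/+ mice (blue) and IKKβ-/- mice (orange), with 95% intervals. The members were chosen on the orange values (5.40 to 6.29), and in IKKβ+/+ mice only the interval of Cyp2e1 (0.29 to 3.94) lies above 0 before adjustment.

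The spread within IKKβ+/+ groups was shared with Adipoq. Across the 10 IKKβ+/+ mice, log2 values of the members correlated with those of Adipoq with r = 0.923 for Cyp2e1, 0.898 for Acsm3, 0.962 for B3galt2 and 0.966 for Klb (permutation test with 100000 resamples, p = 0.00023, 0.00041, 2e-05 and 3e-05, adjusted over the 4 members 0.000307, 0.00041, 6e-05 and 6e-05). Spearman's rho was 0.903, 0.867, 0.976 and 0.952 (adjusted permutation p = 0.00109, 0.00205, 0.00022 and 0.00022). Without the 2 mice farthest from the median of Adipoq, X2358 and X2372, r was 0.881, 0.899, 0.877 and 0.976 over 8 mice. Within treatments, that is after subtraction of treatment means, r was 0.9753, 0.929, 0.982 and 0.971. In the 9 IKKβ-/- mice r was 0.957, 0.987, 0.954 and 0.929, given without a test because the rule read these mice. The values of a mouse share its library and its scaling.

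**Figure D3:**
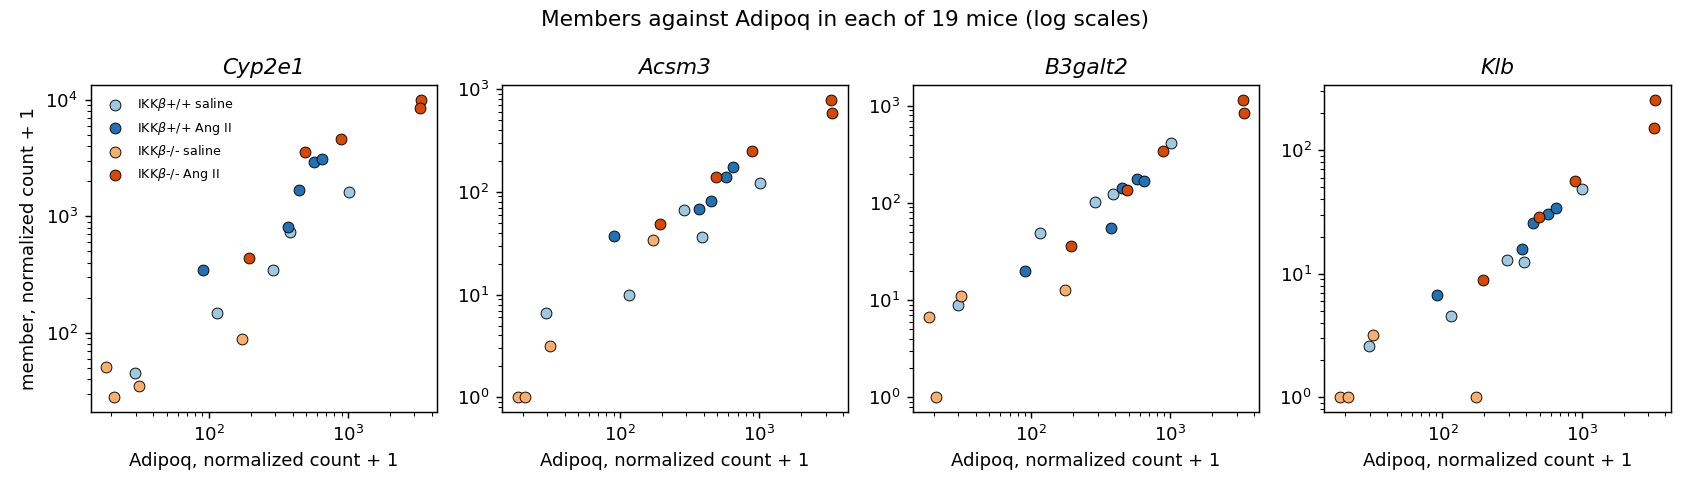
Normalized count plus 1 of each member against that of Adipoq (both log scales) in the 19 mice, coloured by group. Points rise together in each panel (r in IKKβ+/+ mice 0.898 to 0.966), and Ang II-treated IKKβ+/+ mice (dark blue) sit above saline-infused mice (light blue) of similar Adipoq for Cyp2e1.

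Genes most like each member were ranked by Pearson's r of log2 values over all 19 mice among 11883 genes with a mean of at least 50 normalized counts in any group. These mice include the IKKβ-/- mice that chose the members, in which genes with a large rise correlate by that choice, so the ranks are a description. For Cyp2e1 they were Cidec (r = 0.973), Klb (0.953), Cfd (0.953), Adipoq (0.949) and Acsm3 (0.940). For Acsm3 they were Adipoq (0.964), Cidec (0.945), Cyp2e1 (0.940), Pck1 (0.939) and Adig (0.929), and for Klb Cfd (0.959), Retn (0.955), Cyp2e1 (0.953), B3galt2 (0.947) and Adipoq (0.933). B3galt2 had Ankef1 (0.970), Adig (0.967), Pcx (0.965), Ces1d (0.964) and Cfd (0.955) ahead of Adipoq, which ranked 6. Cidec encodes a lipid droplet protein, Cfd the adipocyte protease adipsin, Retn the adipocyte hormone resistin, Adig an adipocyte membrane protein, and Pck1 and Pcx enzymes that make precursors of glucose and glycerol. Over the 10 IKKβ+/+ mice alone, which the rule did not read, Adipoq ranked 7 for Cyp2e1, 12 for Acsm3, 6 for B3galt2 and 1 for Klb. Between members, r in these 10 mice was 0.802 for Acsm3 and B3galt2, 0.842 for Cyp2e1 and B3galt2, 0.916 for B3galt2 and Klb, 0.943 for Cyp2e1 and Acsm3, 0.952 for Cyp2e1 and Klb and 0.953 for Acsm3 and Klb. Over all 19 mice it ran from 0.910 to 0.953.

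Cyp2e1 nevertheless moved apart from Adipoq with Ang II in IKKβ+/+ mice. Its ratio to Adipoq, a ratio of normalized counts that is compared between mice and not per length, ran from 1.21 to 1.91 in saline-infused mice and from 2.20 to 5.07 in Ang II-treated mice, so the groups did not overlap. The log2 value of Cyp2e1 minus that of Adipoq was 0.57 ± 0.26 (SD, n = 5) with saline and 1.91 ± 0.47 (SD, n = 5) with Ang II, a difference of 1.34 or 2.53-fold (two-sided exact permutation test over mice, p = 0.00794, the smallest this design allows, adjusted over the 4 members 0.0317). Among 14844 genes, 0.0135% were higher relative to Adipoq in all Ang II-treated than in all saline-infused IKKβ+/+ mice, that is 2 genes. The other was Hp, which encodes the acute-phase protein haptoglobin and is named after its values were seen, with a difference of 1.97 and counts of 32.6 to 693 with saline and 675 to 2593 with Ang II. Adipoq ranged from 28.6 to 1012 in these saline-infused mice, so genes that do not follow it could hardly separate. The share over all genes is thus low by construction. Of 25 other white adipocyte markers none separated upward, and Cidec had 4 of 5 Ang II-treated mice above all saline-infused mice. Relative to Plin1 the difference for Cyp2e1 was 2.03 and relative to the mean of the white adipocyte markers 2.01 (exact p = 0.00794 each), with 5 of 5 Ang II-treated mice above all saline-infused mice for each reference. With 1 mouse left out the difference stayed between 1.23 and 1.54, and the adjusted p rose to 0.0635 for 9 of the 10 mice, since 5 against 4 mice cannot go below an exact p of 0.0159.

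At the limit used for the permutation tests, an adjusted p of 0.05, the other members did not pass this comparison. Acsm3 relative to Adipoq was higher with Ang II by 0.83 on the log2 scale (exact permutation p = 0.0794, adjusted 0.106), from 7.69 to 23.0% of the Adipoq count with saline and 18.2 to 40.4% with Ang II. B3galt2 was lower by a difference of -0.57 (exact permutation p = 0.0317, adjusted 0.0635), from 27.8 to 42.3% with saline and 14.7 to 31.6% with Ang II. Klb differed by 0.22 (exact permutation p = 0.437, adjusted 0.437), from 2.96 to 5.56% and 4.05 to 6.38%. These values moved with the reference gene: relative to the mean of the white adipocyte markers the differences were 1.51 for Acsm3 (adjusted exact p = 0.0159), 0.89 for Klb (0.0212) and 0.11 for B3galt2 (0.833). They also moved with saline-infused mouse X2372, which had 36 Adipoq reads and 2 to 56 reads of each member, and without which Acsm3 (1.0037), B3galt2 (-0.63) and Klb (0.44) passed with adjusted exact p = 0.0476, 0.0317 and 0.0476. A difference between members in this response was not tested.

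**Figure D4:**
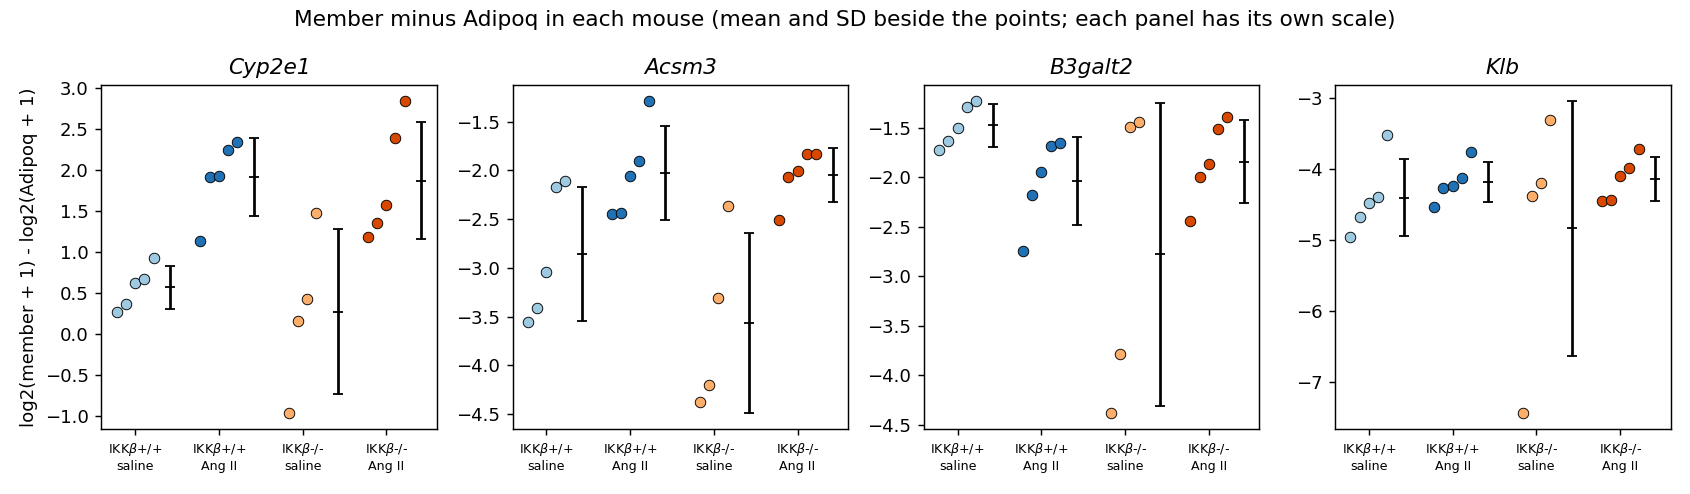
Log2(member + 1) minus log2(Adipoq + 1) in each mouse by group, with the mean and SD beside the points and a separate scale for each panel. For Cyp2e1 all Ang II-treated IKKβ+/+ mice lie above all saline-infused IKKβ+/+ mice (mean 1.91 against 0.57), and saline-infused IKKβ-/- mice scatter most in all panels.

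In IKKβ-/- mice the same differences from Adipoq, described only, were 1.59 for Cyp2e1, 1.51 for Acsm3, 0.93 for B3galt2 and 0.70 for Klb, against changes of 5.40 to 6.29 before the subtraction. The ratio of Cyp2e1 to Adipoq was 0.51 to 2.89 with saline and 2.28 to 7.20 with Ang II, and 3 of 5 Ang II-treated mice lay above all saline-infused mice. These saline-infused mice had 15 to 84 reads of Cyp2e1 and 11 to 164 of Adipoq, so their ratios are coarse. The summed level of the 27 white adipocyte markers was also higher with Ang II in IKKβ-/- mice, from 11463 to 23866 normalized counts with saline (median 14224) and 20563 to 112030 with Ang II (median 43434). In IKKβ+/+ mice it ran from 12657 to 73597 with saline (median 31529) and from 15172 to 31284 with Ang II (median 24566), so its median was lower with Ang II. The sum is weighted to abundant genes such as Scd1, with a mean of 9644 with saline and 3450 with Ang II. By gene, 16 of 26 markers tested had a log2 change above 0. Median Adipoq went from 288 to 446 and median Plin1 from 277 to 221. The medians of all 4 members were higher with Ang II. In bulk tissue fewer cells of a type and less RNA per cell cannot be told apart, and the part of adipocyte content in the members' rises was not tested.

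With a score of the white adipocyte markers as a covariate (the mean over 26 markers, Adipoq among them and the members left out), the changes in IKKβ-/- mice were 2.57 for Cyp2e1, 2.31 for Acsm3, 1.40 for B3galt2, 2.18 for Klb and 0.72 for Adipoq. In IKKβ+/+ mice this fit gave changes of 1.97 for Cyp2e1, 1.46 for Acsm3, 0.87 for Klb, 0.05 for B3galt2 and 0.62 for Adipoq, with 2 of 4 members past the limits, beside 4.45% of all genes upward. Adipoq, itself a part of the score, was also past the limits (adjusted p = 0.0565, limma). A member past them is therefore not shown to have risen beyond adipocyte content. Its slope on the score and its spread came from all 19 mice, those of the rule included, so this count is a description. A fit of the IKKβ+/+ mice alone, chosen after seeing the data, called 3 of 4 members against 6.25% of genes upward, with 1.95 for Cyp2e1 (adjusted p = 0.00444), 1.47 for Acsm3 (0.0106), 0.87 for Klb (0.0907) and 0.04 for B3galt2 (0.932). It called Adipoq too, at 0.62 (adjusted p = 0.0425, limma).

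Markers of white adipocytes were then counted in both genotypes. In IKKβ-/- mice 16 of 26 tested rose with Ang II and none fell (median log2 change 2.18, against -0.0029 over all genes), the largest being Pck1 (5.73), Cidec (4.89), Adipoq (4.70) and Cfd (4.46). In IKKβ+/+ mice 0 of 26 passed in limma, edgeR or DESeq2, 0 had an unadjusted p under 0.05, and the median was 0.19. For the difference between genotypes limma called 0 of all genes (1654 at an unadjusted p under 0.05, 3 by edgeR and 279 by DESeq2). Relative to Adipoq, 25 other white adipocyte markers had a median difference of -0.65 in Ang II-treated against saline-infused IKKβ+/+ mice, from -1.97 (Scd1) to 0.86 (Cidec). The members were at 1.34 (Cyp2e1), 0.83 (Acsm3), 0.22 (Klb) and -0.57 (B3galt2), so only Cyp2e1 lay above this range. None of the 25 markers was higher in all Ang II-treated mice, and Scd1 and Dgat2, which desaturate fatty acids and complete triglyceride synthesis, were lower in all. Of 9 brown adipocyte markers tested, 0 passed in IKKβ-/- mice by limma (5 at an unadjusted p under 0.05, 0 by edgeR and 3 by DESeq2) and the channel gene Kcnk3 rose in IKKβ+/+ mice (1.08).

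Markers of hepatocytes and kidney tubules, which also express Cyp2e1 or Acsm3, were low. Of 18 hepatocyte markers 12 were in the table and 3 could be tested, and 0 passed in IKKβ+/+ mice by any of the 3 tools (1 at an unadjusted p under 0.05). Albumin (Alb) fell with Ang II in IKKβ-/- mice, from 30.6 to 307 normalized counts with saline to between 0 and 6.35 (log2 change -5.32, adjusted p = 0.00368, limma). Ahsg rose in the same mice (1.29), and Apoa1 and Ttr did not exceed 15.8 and 10.5 in any mouse. The summed hepatocyte level was 29.1 to 100.04 and 86.0 to 185 in saline-infused and Ang II-treated IKKβ+/+ mice, and 73.9 to 455 and 35.99 to 121 in IKKβ-/- mice. Of 12 kidney tubule markers 3 were in the table, summing to at most 166 in any mouse, Slc5a2 did not exceed 6.53, and Cyp4b1 fell in IKKβ+/+ mice by limma (-1.56) but not by edgeR or DESeq2. Of 9 adrenal cortex markers 3 were in the table, and Star ranged from 3.60 to 93.6. Th and Dbh, markers of sympathetic neurons and chromaffin cells, reached 825 and 1674 in the highest Ang II-treated IKKβ+/+ mouse (group medians 1.07 and 3.20) and at most 7.99 and 21.3 in any mouse of the other groups. Of 4 such markers tested in IKKβ+/+ mice limma called 1, the neuronal hydrolase Uchl1 (0.86), and edgeR and DESeq2 called 4 each. With Ang II, Chgb, Slc18a2 and Prph had means of 61.2 ± 112, 225 ± 437 and 222 ± 443 (SD, n = 5), so these calls rest on few mice.

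Smooth muscle markers, which define the labelled tissue, were abundant in all mice, with summed levels of 323400 to 671241 normalized counts. In IKKβ+/+ mice Tagln, Cnn1 and Des rose with Ang II (3 of 8; 0.66, 0.82 and 0.86) and none of the 8 passed in IKKβ-/- mice in limma, edgeR or DESeq2. Endothelial Tek fell in IKKβ+/+ mice (-1.08) and Kdr rose in IKKβ-/- mice (1.79), fibroblast Lum fell in IKKβ+/+ mice (-1.27), striated muscle Ckm rose in IKKβ+/+ mice (2.93), and 0 of 8 macrophage markers passed in either genotype by any of the 3 tools.

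Genes that work with Cyp2e1 were counted beside all genes tested, of which 4.33% passed upward and 4.33% downward in IKKβ+/+ mice (limma). Of 9 other genes of the P450 family 2 and its electron donors tested, 1 rose with Ang II in IKKβ+/+ mice, Por, the reductase that passes electrons to P450 enzymes, from 1253 ± 235 (SD, n = 5) to 2544 ± 1155 normalized counts (SD, n = 5; log2 change 0.93, adjusted p = 0.0463, limma). In IKKβ-/- mice 0 of the 9 passed in limma, 1 had an unadjusted p under 0.05, and edgeR and DESeq2 called 0 and 1. Of 9 other genes of ethanol, acetaldehyde and acetone metabolism, Adh7 (-1.56), Adh1 (-1.11) and Aldh2 (-0.45) fell with Ang II in IKKβ+/+ mice while Cyp2e1 was at 2.11 without passing. None of the 9 passed in IKKβ-/- mice in limma (2 unadjusted, 1 by edgeR, 2 by DESeq2).

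Of the other medium-chain acyl-CoA synthetases only Acsm5 was tested, at up to 17.7 normalized counts in any mouse, and it passed in neither genotype by any of the 3 tools. Among 9 acyl-CoA synthetases of other chain lengths, Acss3, a mitochondrial enzyme for short chains, rose in IKKβ-/- mice from 25.2 ± 8.64 (SD, n = 4) to 308 ± 249 (SD, n = 5; log2 change 2.997, adjusted p = 0.0377, limma). Acsl1, the main long-chain enzyme of adipocytes, rose by 1.18 (adjusted p = 0.0353), and none of the 9 passed in IKKβ+/+ mice by any of the 3 tools or at an unadjusted p under 0.05.

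For B3galt2, 11 other galactosyltransferases and related enzymes were tested. In limma 0 of 11 passed in either genotype, with 2 at an unadjusted p under 0.05 in IKKβ+/+ and 1 in IKKβ-/- mice, and edgeR called 0 in both while DESeq2 called 1 and 0. The median log2 change of these genes in IKKβ-/- mice was -0.05, beside 5.63 for B3galt2.

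For Klb, its partner receptor Fgfr1 was present in all mice at 2414 to 4273 normalized counts and did not pass in either genotype. Fgf21, the hormone that signals through the pair, did not exceed 9.01 in any mouse and was not tested. Kl, the related α-Klotho, ranged from 1.05 to 23.0. Of 10 genes of the klotho, FGF receptor and endocrine FGF list tested besides Klb, Fgfr3 fell in IKKβ+/+ mice (-0.79, adjusted p = 0.0744, limma), and in IKKβ-/- mice 0 passed by any of the 3 tools or at an unadjusted p under 0.05.

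Lipolysis genes, which release fatty acids from the fat droplet, moved with the members in IKKβ-/- mice. There 7 of 14 rose (median log2 change 0.74), the largest being Plin1 (4.04), Adrb3 (3.90), Prkar2b (2.696) and Lipe (2.20), and several of these genes are also in the white adipocyte list. In IKKβ+/+ mice Ptger3 fell (-0.84) and none rose. Of 14 genes of the PPARα and ketone list, Pdk4, a kinase that limits glucose oxidation, rose in IKKβ+/+ mice (1.06, adjusted p = 0.0361, limma), and 0 passed in IKKβ-/- mice by limma, with 8 at an unadjusted p under 0.05, 1 by edgeR and 6 by DESeq2.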

How the data were processed

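Bulk RNA-Seq of the SRA was read from a table of 20408 genes in 19 mice. Per the labels and the methods of the study, the authors prepared stranded poly(A) libraries, trimmed single reads (Trimmomatic 0.35) and mapped these to GRCm38 (STAR 2.7.1a), then counted genes and normalized with DESeq2 1.30.1; RSEM was run for TPM values, not used here. The deposited table holds these values (signal, reads over a size factor). All values (100%) were, within 0.05 of a read, whole multiples of 1 read, so reads were recovered. Depth was 11382573 to 19906694 reads per mouse, which limits genes with few reads, such as Klb.

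Testing required 10 normalized counts or more in 4 mice or more; 14845 genes met this and 5563 did not. A gene was called at a fold change above 1.2 with adjusted p under 0.1. Log2(value + 1) was fitted with limma 3.58.1 (lmFit, eBayes with trend; R 4.3.3) over all 4 groups, two-sided, with Benjamini-Hochberg adjustment over the genes tested. Exact permutation tests and correlations used SciPy 1.17.1. On this scale fold changes of low genes are understated. Nothing says beyond the mouse numbers how mice were housed or libraries batched. Pairs of mice within groups all differed beyond counting noise (36 pairs).

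The members and gene lists were chosen with earlier results of these data known. Genes named are the members, Adipoq, Plin1 and Ikbkb, up to 4 genes with the largest change among those that passed from each list, the 5 genes most like each member, the genes next to the rule's limit and overlapping genes. Outside this rule, Apoa1, Ttr, Slc5a2, Star, Th, Dbh, Fgfr1, Fgf21, Kl and Acsm5 were picked to give levels. Scd1, Dgat2 and Hp were named for their values relative to Adipoq. The columns of the table were all used. Alternatives were a pseudocount of 4, no filter, TMM scaling and quasi-likelihood tests (edgeR 4.0.16), DESeq2 1.42.0, only the groups compared, array weights, a stricter limit on the adjusted p (0.05) or the fold change (1.5), the adipocyte score, other reference genes and each mouse left out. The fits were also run on simulated counts with the same spread for every gene, which does not stand for the wider spread of the members and Adipoq. Promoters are RefSeq, GRCm38.p6; gene spans matched Gencode M21.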

Additional observations from a re-analysis of the deposited data

Results flagged for a closer look

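In 5 of 36 sets of 4 or 5 mice examined (the members and Adipoq in each group, as counts and relative to Adipoq), the highest mouse stood far from the others of its group. The limit used flags about 1 in 20 sets, or 1.8 here, if values are normally distributed and sets are independent. Counts are skewed and the sets share mice, so 1.8 is not a chance expectation for these data. Mouse X2403 had 32.7 normalized counts of Acsm3 and 173 of Adipoq among saline-infused IKKβ-/- mice, where the other mice had at most 2.18 and 30.5. In the same group mouse X2409 had 2.18 of Klb, from 3 reads, where the others had none. Mouse X2370 had 415 of B3galt2 and 47.3 of Klb among saline-infused IKKβ+/+ mice, where the next had 123 and 12.0. Values relative to Adipoq were not among them.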

How the results depend on the processing

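Depth limits Acsm3, B3galt2 and Klb in saline-infused IKKβ-/- mice, most of which had 14 reads or fewer of each. No paired analysis was possible because the mice of the groups carry different numbers. The counts of genes called depended on the setting, for causes that were not tested. For Ang II against saline in IKKβ+/+ mice the count of 1286 was 2074 with array weights, 638 at an adjusted p under 0.05, 752 at a fold change above 1.5 and 428 to 1915 with 1 mouse left out. In IKKβ-/- mice the count of 785 was 17 with the adipocyte score, 295 with only the groups compared, 412 at an adjusted p under 0.05, 271 without X2384 and X2385 and 435 to 1082 with 1 mouse left out. For the difference between genotypes the count of 0 was 76 with array weights, 3 by edgeR, 279 by DESeq2 and 0 to 79 with 1 mouse left out. For genotype with saline the count of 812 was 1902 with array weights, 1437 by DESeq2, 6 with the score, 1420 with only the groups compared, 136 at an adjusted p under 0.05, 504 at a fold change above 1.5 and 24 to 1726 with 1 mouse left out. For genotype with Ang II the count of 19 was 521 by DESeq2, 0 with the score, 1 with only the groups compared, 0 at an adjusted p under 0.05 and 0 to 553 with 1 mouse left out.

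Of the members, B3galt2 in IKKβ+/+ mice changed sign, from a log2 change of 0.21 to -0.33 by edgeR, -0.31 by DESeq2 and between -0.56 and 0.83 with 1 mouse left out. Relative to the mean of the white adipocyte markers, Acsm3 (1.51) and Klb (0.89) passed in IKKβ+/+ mice and B3galt2 turned to 0.11, as it did to 0.13 relative to Plin1. With a pseudocount of 4, B3galt2 relative to Adipoq passed (-0.59) and Klb turned to -0.0239. With 1 mouse left out the differences from Adipoq were 1.23 to 1.54 for Cyp2e1, 0.65 to 1.02 for Acsm3, -0.66 to -0.39 for B3galt2 and 0.0818 to 0.44 for Klb, and their adjusted exact p moved across 0.05 in the ways given above. The correlations with Adipoq kept their sign and passed under all alternatives run, with adjusted permutation p from 4e-05 to 0.00922. The fit without X2384 and X2385 and the fit of IKKβ+/+ mice alone with the score were chosen after seeing the data.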
